A study of Mus musculus with 78 samples.

Results

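Lysosome and autophagy genes were followed in mouse CD8+ T cells that met nutrient loss or inhibitors of growth signalling and translation. The set was a list of 37 gene symbols, taken by name, and 36 of them had an entry among the 14695 genes of the count table. Psap, the saposin precursor, was not analysed here. The members were sorted into 12 roles, from lysosomal hydrolases to autophagy kinases.

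Primary CD8+ T cells of C57BL/6J mice, isolated from lymph node and spleen, were used on day 3 after activation. For the nutrient experiment they spent 3 h either in full medium (Control) or in medium without 1 component, which was glutamine, glucose, methionine, arginine or the branched-chain amino acids (BCAA). In the drug experiment the same time was spent with DMSO as the control, with halofuginone, which blocks prolyl-tRNA synthetase, with Torin1, which blocks the kinase mTOR, or with 4EGI-1, which keeps the initiation factor eIF4E from eIF4G. From each lysate both total RNA and the RNA of pooled polysome fractions 9 to 13 were sequenced, with 3 libraries per group. The labels give neither age nor sex of the mice, and they do not say whether replicates came from separate cultures or animals, so the p-values reflect only how these libraries vary. They call the nutrient libraries total RNA and the drug libraries polyA RNA, and the 2 experiments were never fitted together.

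The lysosome is the acid compartment in which cells break down proteins, lipids and sugars, and autophagy is the route by which cytoplasm is wrapped in a membrane and delivered there. The ULK kinase complex starts an autophagosome, the PI3-kinase complex of Beclin marks the site with a lipid, WIPI proteins read that lipid, and the ATG8 family is then conjugated to the membrane, where cargo receptors bind. The factors TFEB and TFE3 drive genes of both compartments when mTOR, which sits on the lysosome, is off. In T cells autophagy is known to feed amino acids and membranes back to growing cells and to support memory.

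The library totals lay between 15144663 and 54272886 reads, and each member had at least 47 reads in every library. Levels are read counts scaled to a common library size (CPM, on TMM-scaled totals), with ± for the SD of 3 libraries. Changes are log2 fold changes, where ± gives the fitted standard error, and a member was called at a Benjamini-Hochberg adjusted p below 0.05 in edgeR's quasi-likelihood test across all genes. All 9 CD8 T cell markers were in the table, with a summed level of 6460 to 12300 CPM in total RNA. Of 10 macrophage and monocyte markers only Cd68, itself a lysosomal membrane protein, was in the table, at 3.72 to 12.7 CPM, and none of 4 neutrophil markers was. The summed T cell markers were 9330 to 10800 CPM in Control but 7050 to 7630 CPM without glucose and 6460 to 7500 CPM without glutamine. Most of that sum was Gzmb, at 4720 to 8580 CPM over the total RNA libraries of the nutrient experiment. There Lck ran from 482 to 581 CPM, Cd2 from 326 to 542 CPM, Cd3d from 219 to 277 CPM and Cd3e from 47.8 to 85.6 CPM. Cd68 was 10.9 to 12.7 CPM in Control and 8.32 to 9.58 CPM without glutamine. Of 4 CD4 T cell markers, Cd4 and Cd40lg were not in the table. Foxp3 was at most 0.109 CPM in total RNA of the nutrient experiment and 0.0492 to 2.76 CPM in that of the drug experiment. In the nutrient experiment the fourth, Zbtb7b, brought the summed level from 10.6 to 12.6 CPM in Control to 10.4 to 11.4 CPM without arginine, 18.3 to 21.7 CPM without BCAA, 18.8 to 21.5 CPM without glucose, 21.1 to 24.9 CPM without glutamine and 15.6 to 18.6 CPM without methionine. The part of these markers in the results was not tested. In bulk RNA fewer cells of a type and less RNA per cell cannot be told apart. Some members overlap another gene on the genome, such as Npc1 with Rmc1, Ctsb with Fdft1, Map1lc3b with Zcchc14 and Becn1 with Cntd1, and whether reads were counted by strand is not given in the sources used here.

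Promoter stretches are shown for the members that hold the 8-base palindrome known from lysosomal promoters, TCACGTGA, since it is the sequence by which TFEB-type factors are known to recognise such genes. RefSeq promoter windows of GRCm38.p6, from 250 bases before to 50 after the annotated start, were matched for 31 of the 37 members. No entry was matched for Ctsb, Npc1, Atp6v1b2, Atp6v1h, Map1lc3a and Becn1. TCACGTGA lay in the windows of 6 members, Atp6v0d1, Atp6v1a, Ctsa, Ctsd, Gla and Mcoln1, and in 0.974% of all 32851 windows. The stretches read as follows, 5′ to 3′ on the gene's strand, with the motif in capitals.
Atp6v0d1: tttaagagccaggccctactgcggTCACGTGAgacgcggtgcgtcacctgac
Atp6v1a: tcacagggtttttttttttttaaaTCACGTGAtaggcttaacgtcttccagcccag
Ctsa: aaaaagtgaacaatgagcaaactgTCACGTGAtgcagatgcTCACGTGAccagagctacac
Ctsd: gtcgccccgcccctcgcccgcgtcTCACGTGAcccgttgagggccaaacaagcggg
Gla: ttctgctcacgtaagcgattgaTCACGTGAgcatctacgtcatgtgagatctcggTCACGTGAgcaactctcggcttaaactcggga
Mcoln1: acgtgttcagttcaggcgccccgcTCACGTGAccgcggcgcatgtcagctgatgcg
They lie at chr8:105566041-105566092 (minus strand), chr16:44139360-44139415 (minus), chr2:164833736-164833796 (plus), chr7:142387895-142387950 (minus), chrX:134601169-134601255 (minus) and chr8:3500449-3500504 (plus), in the order given. Ctsa and Gla each carry the motif 2 times. The shorter E box CACGTG, which is contained in TCACGTGA and so is counted in those windows too, was found for 12 members and in 7.15% of all windows. TGATGNAA, the core of the element bound by C/EBP-ATF pairs, lay in the windows of Atp6v0d1 and Ctsl and in 3.97% of all windows. All 3 motifs were searched on both strands. A match describes the letters in these windows and was not tied to any value below.

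In Control cells the mRNAs of most members were relatively rich in polysomes. The polysome-to-total ratio was called for 30 of 36 members, 25 above and 5 below the scale of the fit, where 65.7% of all genes were called. The median log2 ratio of the members was 0.31 and that of all genes 0.09. The highest ratio was that of Ulk1, the kinase that starts autophagy, at 1.10 ± 0.15, followed by its partner Atg13 at 0.86 ± 0.09, Tfeb at 0.79 ± 0.17 and the cysteine proteases Ctsb at 0.75 ± 0.11 and Ctsz at 0.69 ± 0.11. The lowest were the ATG8 gene Map1lc3a at -0.64 ± 0.16 and Atp6v1a, the catalytic subunit of the proton pump, at -0.57 ± 0.11. Becn1 (-0.29 ± 0.07), Nbr1 (-0.29 ± 0.08) and Map1lc3b (-0.19 ± 0.08) were the other members called below. With ribosomal RNA entries left out before scaling, the count was 15 above and 5 below, with relative log expression size factors it was 18 and 5, and without those entries the median of all genes moved from 0.09 to -0.05. The 65.7% of all genes called belongs to the main fit only.

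In DMSO cells 18 members were called for that ratio, 15 above and 3 below, with 59.3% of all genes called. Ctsz (1.53 ± 0.24), Tfeb (1.38 ± 0.16), the aspartic protease Ctsd (1.19 ± 0.18), Sqstm1 (1.07 ± 0.16) and Ctsl (1.07 ± 0.24) led. Atp6v1a, among the lowest in Control, lay lowest here at -0.99 ± 0.15, with Atg5 at -0.48 ± 0.10 and Tfe3 at -0.32 ± 0.11. Tfe3 was no longer called in DMSO without DMSO replicate 1 or 3 (adjusted p up to 0.0965), and in Control it stood on the other side, at 0.55 ± 0.08. The difference between the experiments was not tested.

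In total RNA the autophagy genes Atg14, Wipi2 and Nbr1 and the factor gene Tfe3 rose in all 5 deprivations, while Ulk1, Becn1 and Gabarapl2 were called down without glucose and all cathepsins but Ctsz had no call. Without arginine 6 members rose and none fell, 16.7% of the 36 members where 9.24% of all genes were called. Without BCAA 9 rose and 3 fell (33.3% of members, 30.1% of all genes). Glucose loss gave the highest count, with 13 up and 7 down (55.6% of members, 40.8% of all genes). Without glutamine 9 rose and 2 fell, 30.6% of members against 39% of all genes. Without methionine 6 rose and 2 fell, 22.2% of members against 35.2% of all genes. The share of members called was thus above that of all genes for glucose and arginine, near it for BCAA and below it for glutamine and methionine. Median log2 fold changes of the members ran from -0.02 without methionine to 0.10 without arginine, and those of all genes from -0.01 to 0.03.

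The arginine and glucose counts depended on single libraries. Leaving out Control replicate 1 or 2 or arginine-free replicate 2 gave 3 members for arginine loss, and leaving out Control replicate 3 or arginine-free replicate 1 gave 2. The glucose count of 20 became 13 without Control replicate 2, 11 without Control replicate 3, 12 without glucose-free replicate 1 and 11 without glucose-free replicate 2. The share of all genes called is not given for these smaller fits, so the comparison with all genes covers the full fit only.

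**Figure D1:**
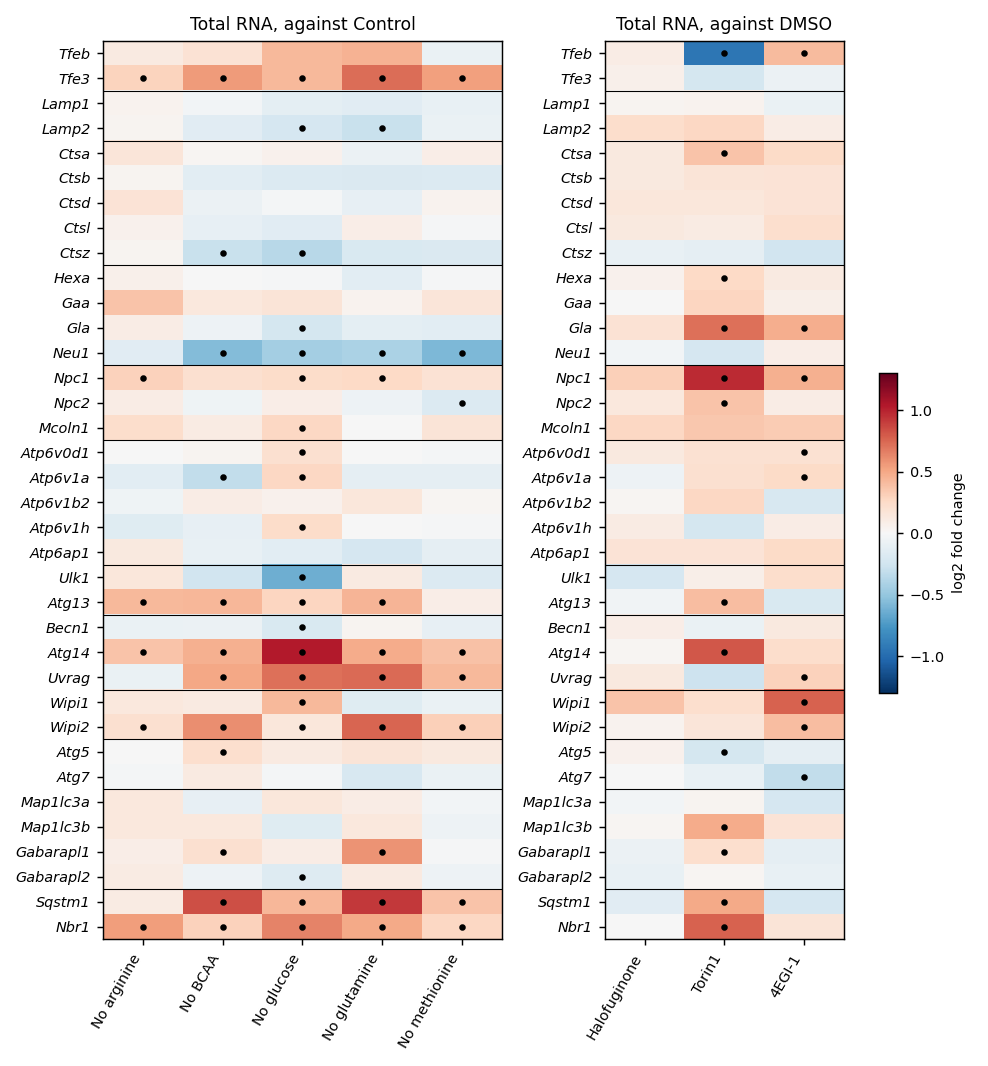
Log2 fold changes of 36 members (rows, grouped by role with black lines) in total RNA against Control for 5 deprivations (left) and against DMSO for 3 drugs (right), on a colour scale from -1.3 to 1.3. A black dot marks an adjusted p below 0.05. Atg14, Nbr1, Wipi2 and Tfe3 carry a dot in all 5 deprivation columns, and the halofuginone column carries none.

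No member fell in all 5 deprivations. The rise of Tfe3 without arginine was no longer called with relative log expression size factors, with no low-count filter, or without any 1 of the Control replicates or arginine-free replicate 1 or 2 (adjusted p up to 0.244). Members without a call in any deprivation numbered 13: Lamp1, Ctsa, Ctsb, Ctsd, Ctsl, Hexa, Gaa, Tfeb, Atp6v1b2, Atp6ap1, Map1lc3a, Map1lc3b and Atg7.

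Atg14, the subunit that directs the PI3-kinase complex to autophagosomes, had the largest rise of the set, without glucose. Its Control libraries stood at 5.38, 5.34 and 5.87 CPM and the glucose-free ones at 11.0, 11.1 and 11.7 CPM. All 3 glucose-free libraries lay above all others of the nutrient experiment, and the change was 1.03 ± 0.11 (adjusted p = 1.5e-07). The other 4 deprivations gave means of 7.17 to 7.69 CPM and changes of 0.37 to 0.48. Glucose loss exceeded each of them, by 0.55 ± 0.10 over glutamine loss and by 0.66 ± 0.11 over arginine loss (adjusted p = 0.000389 and 6.71e-05). The rise without arginine, 0.37 ± 0.11, was lost without any 1 of the Control replicates or without arginine-free replicate 1 or 2 (adjusted p up to 0.143), and that without methionine was lost without methionine-free replicate 3 (adjusted p = 0.0625).

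Uvrag, which binds Beclin in a second form of the same complex, had Control libraries at 62.1, 59.7 and 61.0 CPM. It stood at 106, 95.6 and 98.5 CPM without glucose and at 107, 101 and 95.7 CPM without glutamine. None of these libraries overlapped Control, and the changes were 0.72 ± 0.06 and 0.73 ± 0.06 (adjusted p = 2.32e-08 and 9.35e-09). BCAA and methionine loss raised it by 0.50 ± 0.06 and 0.43 ± 0.06. Without arginine it did not pass the test, at 58.4, 52.9 and 60.4 CPM and a change of -0.09 ± 0.06. Arginine loss lay below glucose loss by 0.80 ± 0.06 (adjusted p = 1.49e-08). Becn1, the core of the complex, was called in 1 deprivation, where glucose loss lowered it by 0.20 ± 0.06.

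Cargo receptors rose together in 4 of the 5 deprivations. Sqstm1, which carries ubiquitin-tagged cargo into autophagosomes, had Control libraries at 135, 125 and 129 CPM. It stood at 240, 228 and 226 CPM without BCAA and at 254, 237 and 241 CPM without glutamine. Those 6 libraries were the highest of the nutrient experiment, and the changes were 0.84 ± 0.06 and 0.92 ± 0.06 (adjusted p = 4.25e-10 and 6.49e-11). Glucose and methionine loss raised it less, by 0.43 ± 0.06 and 0.37 ± 0.06. Glutamine loss exceeded glucose loss by 0.48 ± 0.06 (adjusted p = 1.79e-06). Without arginine the libraries at 140, 135 and 141 CPM all lay above Control, but the difference of 0.10 ± 0.06 did not pass the test (adjusted p = 0.287).

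Nbr1, a receptor related to Sqstm1, had Control libraries at 44.9, 41.2 and 44.5 CPM. It was at 69.1, 65.4 and 69.5 CPM without glucose and at 62.0, 58.4 and 69.2 CPM without arginine. No library of any deprivation overlapped Control, with changes from 0.27 ± 0.08 without methionine to 0.64 ± 0.08 without glucose (adjusted p = 0.00977 and 1.17e-06). It was the member with the largest rise without arginine, 0.54 ± 0.08. Loss of arginine exceeded loss of BCAA by 0.24 ± 0.08 (adjusted p = 0.0338), so Nbr1 and Sqstm1 took opposite orders in that pair, where Sqstm1 was lower without arginine by 0.73 ± 0.06 (adjusted p = 1.33e-08).

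Of the lipid readers, Wipi2, which brings the conjugation machinery to the membrane, rose in all 5 deprivations. Control libraries were at 93.1, 87 and 88.5 CPM, those without glutamine at 154, 150 and 150 CPM and those without BCAA at 136, 140 and 132 CPM. Every library of these deprivations lay above Control, and the changes were 0.76 ± 0.05 and 0.60 ± 0.05 (adjusted p = 3.95e-10 and 2.34e-08). The smallest rise, 0.15 ± 0.05, came without glucose. Its relative Wipi1 rose in 1 deprivation, from 4.88, 6.20 and 5.48 CPM to 6.85, 7.74 and 7.6 CPM without glucose (0.42 ± 0.13). That call was lost without Control replicate 1 (adjusted p = 0.055).

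The initiation kinase genes parted without glucose. Ulk1 was at 8.69, 9.63 and 8.30 CPM in Control and at 5.21, 6.34 and 5.54 CPM without glucose. The groups did not overlap, and the fall of 0.64 ± 0.18 (adjusted p = 0.0061) was the largest fall of any member in total RNA of this experiment. Atg13, the subunit that links the kinase to its complex, instead rose without glucose by 0.28 ± 0.10, and by 0.42 to 0.44 without arginine, BCAA or glutamine. Ulk1 was lower without glucose than without arginine by 0.79 ± 0.18 (adjusted p = 0.00175).

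Of the ATG8 genes, Gabarapl1 was the one called up in total RNA. It had 68.8, 71.5 and 68.2 CPM in Control and 104, 106 and 103 CPM without glutamine. The groups were far apart relative to their spread, at 0.59 ± 0.05 (adjusted p = 1.53e-08). BCAA loss raised it by 0.21 ± 0.05, and glutamine loss exceeded BCAA loss by 0.38 ± 0.05 (adjusted p = 4.44e-05). Gabarapl2 fell without glucose by 0.17 ± 0.06. Of the conjugation enzymes, Atg5 rose without BCAA by 0.21 ± 0.07 and Atg7 was not called.

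**Figure D2:**
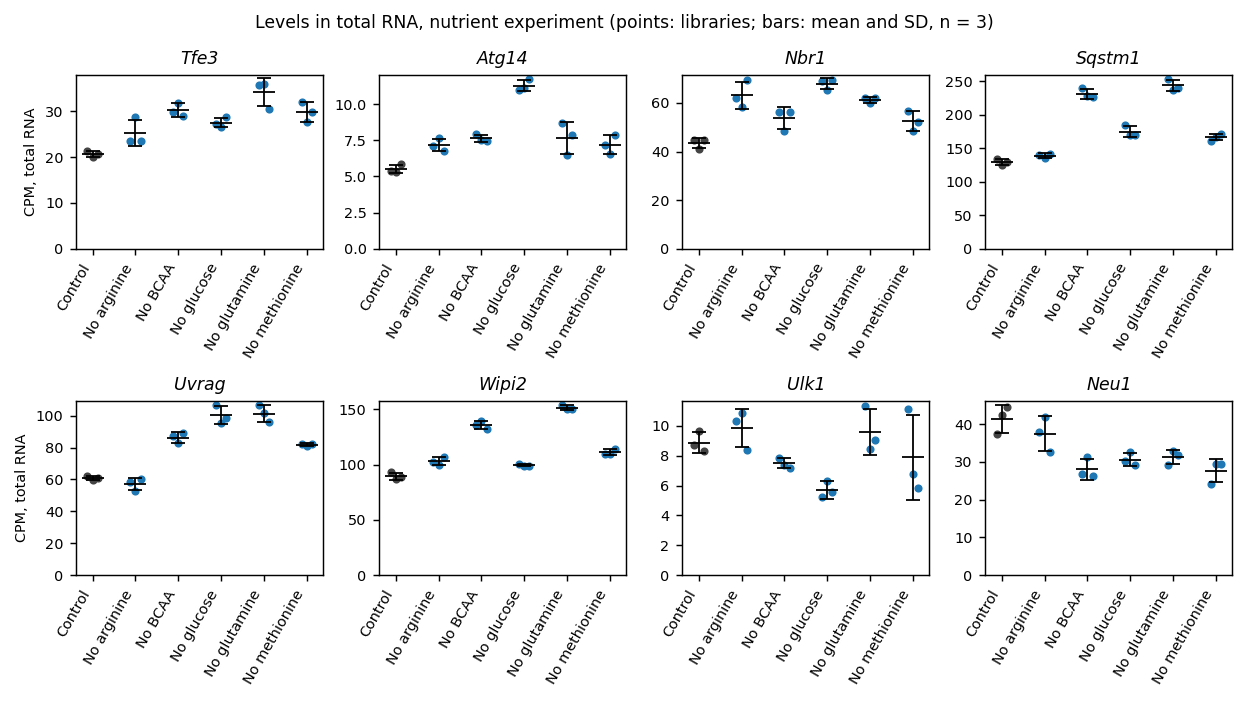
CPM in total RNA for 8 members in Control and 5 deprivations, with each library as a point and the mean with its SD as a bar (3 libraries per group, linear axes from 0). Atg14 is highest without glucose, Sqstm1 and Wipi2 are highest without BCAA and glutamine, and Ulk1 is lowest without glucose.

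Of the transcription factors, Tfe3 rose and Tfeb did not pass the test. Tfe3 was at 21.3, 20.0 and 20.6 CPM in Control and at 35.6, 36.0 and 30.5 CPM without glutamine, a change of 0.72 ± 0.09 (adjusted p = 9.53e-07) with no overlap. The other changes were 0.55 ± 0.09 without BCAA, 0.53 ± 0.09 without methionine, 0.42 ± 0.09 without glucose and 0.29 ± 0.09 without arginine. Tfeb, with 2.48 to 3.51 CPM in Control, was at 4.04, 3.87 and 4.14 CPM without glutamine, a difference of 0.45 ± 0.20 (adjusted p = 0.0785).

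Calls among the lysosomal enzymes in total RNA were falls. Neu1, the sialidase, was at 37.3, 42.3 and 44.6 CPM in Control, at 26.7, 31.3 and 26.2 CPM without BCAA and at 24.3, 29.5 and 29.3 CPM without methionine. The groups did not overlap, and Neu1 fell by 0.56 ± 0.10 and 0.58 ± 0.10 (adjusted p = 0.000176 and 0.000112). It also fell by 0.44 ± 0.10 without glucose and 0.41 ± 0.10 without glutamine. Without arginine the change was -0.15 ± 0.10 and did not pass the test. Ctsz fell by 0.29 ± 0.09 without BCAA and 0.36 ± 0.09 without glucose, the first of which was lost without Control replicate 2 or 3 or BCAA-free replicate 1 or 3 (adjusted p up to 0.076). The other 4 cathepsins ranged from -0.19 to 0.18 over the 5 deprivations without a call.

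Lamp2, a membrane protein through which some cargo enters the lysosome, fell without glutamine by 0.29 ± 0.08 and without glucose by 0.22 ± 0.08. The first was lost without glutamine-free replicate 1 (adjusted p = 0.0769). The second was lost without Control replicate 2 or 3 or glucose-free replicate 1 or 2 (adjusted p up to 0.197) and with no low-count filter. Gla, the alpha-galactosidase, fell by 0.23 ± 0.08 without glucose, a call lost without the same 4 libraries (adjusted p up to 0.0989).

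Npc1, which moves cholesterol out of the lysosome, rose by 0.30 ± 0.09 without arginine, 0.24 ± 0.09 without glucose and 0.26 ± 0.09 without glutamine. Its changes ran from 0.184 to 0.298 over all 5 deprivations. The test for any difference among them did not pass (adjusted p = 0.768). The arginine call was lost without Control replicate 1 or 3 or arginine-free replicate 1 or 2 (adjusted p up to 0.211). Npc2, its soluble partner, fell by 0.18 ± 0.07 without methionine, where its groups overlapped. The calcium channel gene Mcoln1 rose without glucose by 0.27 ± 0.11.

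The proton pump genes were called mainly without glucose. Atp6v1a, its catalytic subunit, had 132, 106 and 110 CPM in Control, 97.4, 83.0 and 98.0 CPM without BCAA and 142, 142 and 134 CPM without glucose. It was the 1 member called in both directions, with a fall of 0.32 ± 0.09 without BCAA (adjusted p = 0.00962) and a rise of 0.27 ± 0.09 without glucose (adjusted p = 0.0211). The fall was lost without Control replicate 1 or BCAA-free replicate 2 (adjusted p up to 0.0799). Glucose loss also raised Atp6v1h by 0.24 ± 0.08 and Atp6v0d1 by 0.21 ± 0.07, so 3 of the 5 pump genes rose there and none did in the other deprivations.

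A test for any difference among the 5 deprivations called 21 of 36 members in total RNA, where 60% of all genes were called. In polysome RNA the counts of members were higher, as they were for all genes. Polysome libraries of this experiment had 29917770 to 54272886 reads and total RNA libraries 15144663 to 30637485. The part of read depth in these counts was not tested. Members called were 24 without arginine (15 up and 9 down, with 40.5% of all genes called), 23 without BCAA (14 and 9, with 56.1%), 25 without glucose (11 and 14, with 59%), 26 without glutamine (15 and 11, with 64.5%) and 31 without methionine (15 and 16, with 69%). Every member was called at least once. Gaa, Npc1, Atp6v1a, Atp6v1b2, Atp6ap1, Sqstm1, Atg14 and Nbr1 rose in all 5, and Lamp1, Neu1, Atp6v0d1, Atg5 and Wipi1 fell in all 5. Neu1 was not called in all 5 with relative log expression size factors, with DESeq2 or with no low-count filter.

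By role, both cargo receptors rose in polysome RNA in all 5 deprivations. Of the 5 pump genes, 3 rose and 1 fell without arginine and without BCAA, and 4 rose and 1 fell in the other deprivations. Of the 4 ATG8 genes none rose and 2 fell without arginine and without glucose, and all 4 fell without methionine. Of the 5 cathepsins, 3 rose without arginine and none fell, while none rose and 2 fell without glucose.

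Nbr1 rose in polysome RNA by 0.90 ± 0.09 without BCAA to 1.35 ± 0.09 without glucose, the largest rise of any member there. Atp6v1a was at 88.6, 70.5 and 70.9 CPM in Control polysomes and at 210, 185 and 158 CPM without glucose. The groups did not overlap, and the rise was 1.26 ± 0.12 (adjusted p = 5.67e-08), with 1.15 ± 0.12 without methionine and 0.55 to 0.79 in the other deprivations. Npc1 rose by 0.76 to 1.20 and Gaa, the acid alpha-glucosidase, by 0.39 to 1.09, both most without methionine. Gaa was at 54.7, 52.3 and 64.8 CPM in Control polysomes and at 98.1, 121 and 148 CPM without methionine, with no overlap in any deprivation. Sqstm1 rose by 1.12 ± 0.08 and 1.13 ± 0.08 without BCAA and glutamine. The largest falls were those of Neu1, by 0.96 ± 0.09 without methionine, of Gabarapl2, by 0.92 ± 0.08 without methionine, and of Wipi1, by 0.88 ± 0.12 without glutamine. Lamp1, the abundant membrane glycoprotein with no call in total RNA, was at 187, 242 and 220 CPM in Control polysomes and at 107, 124 and 125 CPM without glutamine. These groups did not overlap, and the fall was 0.87 ± 0.10 (adjusted p = 3.54e-07). Without arginine the fall was 0.31 ± 0.10 and the groups overlapped.

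Translational efficiency (TE) was taken as the polysome-to-total ratio in a deprivation over that ratio in Control. It shares its libraries with the comparisons above, and a rise in total RNA enters it with the opposite sign. Since libraries were scaled to a common size, TE is relative to other mRNAs and does not measure the share of an mRNA on polysomes. The main fit did not pair the total and polysome libraries of a lysate. Without arginine 13 members were called, 6 up and 7 down (16.5% of all genes called). Without BCAA there were 16, 5 up and 11 down (26.9%), and without glucose 12, 3 up and 9 down (25.8%). Glutamine loss gave 21, 4 up and 17 down (35.2%), and methionine loss 26, 10 up and 16 down (49.1%). In all 5 the share of members called, 36.1%, 44.4%, 33.3%, 58.3% and 72.2%, was above that of all genes.

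How these calls split by sign depended on the scaling. With ribosomal RNA entries left out before scaling, the splits were 9 up and 5 down, 7 and 6, 8 and 7, 8 and 10, and 13 and 14 in the same order, and the median of all genes moved by up to 0.16, from -0.15 to 0.01 without glutamine. With relative log expression size factors they were 6 and 7, 5 and 8, 6 and 7, 8 and 11, and 11 and 16. Dropping Control replicate 2 gave 7 members for arginine loss, dropping Control replicate 3 or arginine-free replicate 2 gave 8, and dropping arginine-free replicate 1 gave 2. The BCAA count was 10 without Control replicate 2, without Control replicate 3 or without BCAA-free replicate 1. With the lysate as a block the arginine count was 20. Shares of all genes called are given for the main fit only, so whether the members stayed above them under these settings was not tested.

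**Figure D3:**
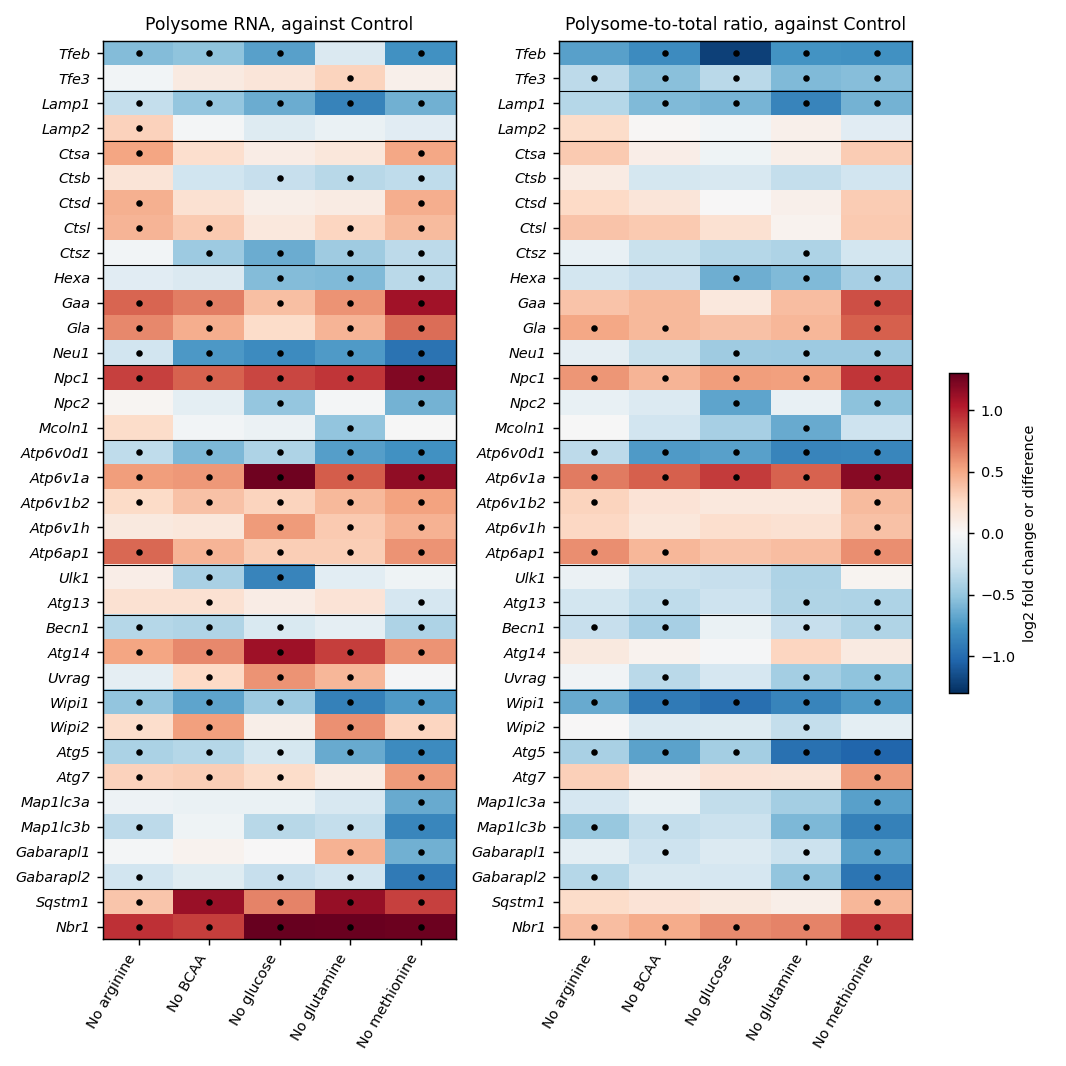
Log2 fold changes of 36 members (rows, grouped by role) in polysome RNA (left) and log2 differences of the polysome-to-total ratio (right), each against Control for 5 deprivations, on a colour scale from -1.3 to 1.3, with a black dot for an adjusted p below 0.05. Npc1, Atp6v1a and Nbr1 are raised and Atp6v0d1, Atg5 and Wipi1 lowered in all columns of both panels.

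Npc1, Atp6v1a and Nbr1 rose in TE in all 5 deprivations, under each scaling and test tried. For Atp6v1a the log2 ratios of polysome to total CPM per lysate were -0.57, -0.54 and -0.60 in Control, 0.35, 0.78 and 0.70 without methionine and 0.47, 0.32 and 0.21 without glucose. Every deprived lysate lay above every Control lysate, and the changes ran from 0.67 ± 0.15 without arginine (adjusted p = 0.00317) to 1.18 ± 0.15 without methionine (adjusted p = 1.06e-07). This subunit was among the lowest of the members in Control, and its ratio came to lie near or above 0 in the deprived cells.

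Npc1 had ratios of 0.21, -0.02 and 0.08 in Control and 0.82, 1.10 and 1.08 without methionine, again with no overlap, and rose by 0.93 ± 0.16 (adjusted p = 9.8e-06). Its other rises were 0.45 to 0.57, of which the calls without arginine, BCAA and glucose were each lost without Control replicate 2 or replicate 1 of the deprivation, among others (adjusted p up to 0.141). Nbr1 moved from -0.36, -0.12 and -0.39 in Control to 0.48, 0.70 and 0.69 without methionine, a rise of 0.92 ± 0.12 (adjusted p = 1.12e-07). Without arginine its lysates, at 0.29, 0.21 and -0.20, overlapped Control, and that call was lost without Control replicate 1 or 3 or arginine-free replicate 1 or 2 (adjusted p up to 0.178). Nbr1 thus rose in total RNA and also rose in its polysome-to-total ratio.

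Other lysosomal genes were called up in TE in some deprivations in the main fit. Gla rose by 0.77 ± 0.15 without methionine (adjusted p = 4.65e-05) and by 0.42 to 0.50 without arginine, BCAA and glutamine, the last 3 lost without Control replicate 3, among others (adjusted p up to 0.139). Gaa rose without methionine by 0.84 ± 0.23. The pump accessory protein Atp6ap1 rose without arginine by 0.60 ± 0.16, lost without arginine-free replicate 1 (adjusted p = 0.0919), and without methionine by 0.61 ± 0.16. It also rose without BCAA by 0.43 ± 0.16, a call lost without any 1 of the 6 replicates (adjusted p up to 0.137). Gla and Atp6ap1 were called up in all 5 deprivations under some other settings. These were relative log expression size factors, DESeq2, no ribosomal RNA entries and the lysate as a block. The test for any TE difference among the 5 deprivations did not pass for Gla, Gaa or Atp6ap1 (adjusted p = 0.162, 0.13 and 0.545).

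Atp6v0d1, Atg5 and Wipi1 fell in TE in all 5 deprivations under each scaling and test tried. Atp6v0d1, a membrane-sector subunit of the same pump as Atp6v1a, had ratios of 0.21, 0.56 and 0.50 in Control and -0.46, -0.49 and -0.33 without glutamine. All deprived lysates were below Control, and the falls ran from 0.34 ± 0.10 without arginine to 0.86 ± 0.10 without glutamine (adjusted p = 0.0149 and 7.61e-08). Subunits of 1 pump thus moved in opposite directions in TE.

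Atg5, which is joined to ATG12 to drive ATG8 conjugation, stood at -0.01, 0.30 and 0.05 in Control, at -0.70, -0.89 and -0.92 without glutamine and at -0.72, -0.97 and -1.01 without methionine. The deprived lysates were all lower, with falls of 0.97 ± 0.11 and 1.03 ± 0.12 (adjusted p = 1.74e-07 and 1.3e-08). Those without arginine and glucose were 0.42 ± 0.11 and 0.44 ± 0.11, the first lost without Control replicate 2 or arginine-free replicate 1 (adjusted p up to 0.0921). Glucose loss differed from glutamine loss by 0.53 ± 0.12 (adjusted p = 0.00411). Wipi1 fell by 0.66 ± 0.18 without arginine to 0.98 ± 0.18 without glucose, where its total RNA rose. The arginine call was lost without arginine-free replicate 1 (adjusted p = 0.0676).

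Both transcription factors fell in TE. Tfe3 fell in all 5 deprivations, by 0.34 ± 0.11 without arginine to 0.57 ± 0.11 without glutamine, while its total RNA rose. In polysome RNA Tfe3 changed by -0.041 to 0.288, with 1 call up and 0 down, and Tfeb by -0.792 to -0.188, with 4 calls down. The TE fall of Tfe3 was not called in all 5 with relative log expression size factors, with DESeq2 or without ribosomal RNA entries. Its arginine call was lost without Control replicate 2 or 3 or arginine-free replicate 1 or 2 (adjusted p up to 0.24). The largest estimated fall of Tfeb was without glucose, from 0.92, 0.33 and 0.87 in Control to -0.39, -0.62 and -0.17. It was 1.22 ± 0.25 (adjusted p = 0.000568). The test for any TE difference of Tfeb among the 5 deprivations did not pass (adjusted p = 0.445). Without arginine the difference of -0.70 ± 0.26 did not pass the test (adjusted p = 0.0574). The falls without BCAA (0.81 ± 0.25, where the groups overlapped) and glutamine (0.78 ± 0.25) were lost without ribosomal RNA entries, without Control replicate 1 or 3, and without BCAA-free replicate 1 and glutamine-free replicate 2, respectively. The fall without methionine, 0.79 ± 0.26, was lost without Control replicate 1 or 3, and the adjusted p of these lost calls was up to 0.292.

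The ATG8 genes, whose products coat the autophagosome, all fell in TE without methionine. Gabarapl2 went from 0.38, 0.53 and 0.32 in Control to -0.46, -0.57 and -0.53, a fall of 0.95 ± 0.11 (adjusted p = 1.62e-08). Map1lc3b went from -0.34, -0.08 and -0.15 to -0.91, -1.03 and -1.20, a fall of 0.87 ± 0.11 (adjusted p = 1.11e-07). For both genes the groups did not overlap. Gabarapl1 fell by 0.70 ± 0.08 and Map1lc3a, the least abundant in reads, by 0.71 ± 0.24. All 4 calls held under each scaling and test tried.

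The methionine falls of Gabarapl1 and Gabarapl2 exceeded those of each other deprivation. Gabarapl1 was lower without methionine than without glutamine by 0.43 ± 0.08 and Gabarapl2 by 0.44 ± 0.11 (adjusted p = 0.000565 and 0.00539). Map1lc3b was lower without methionine than without arginine, BCAA or glucose, by 0.38 to 0.59, and the difference of 0.29 ± 0.11 from glutamine loss did not pass the test (adjusted p = 0.0688). Glutamine loss lowered Map1lc3b by 0.59 ± 0.11, Gabarapl2 by 0.51 ± 0.11 and Gabarapl1 by 0.28 ± 0.08. Map1lc3b also fell without arginine by 0.49 ± 0.11 and without BCAA by 0.31 ± 0.11, and Gabarapl1 without BCAA by 0.27 ± 0.08. Gabarapl2 fell without arginine by 0.37 ± 0.11, which was lost without Control replicate 2 or arginine-free replicate 1 or 2 (adjusted p up to 0.137). Gabarapl1, which rose in total RNA without glutamine, rose in polysome RNA there too, by 0.45 ± 0.06.

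Sqstm1 and Atg7 were each called in TE in 1 deprivation, where methionine loss raised them by 0.44 ± 0.09 and 0.55 ± 0.13. Uvrag fell without BCAA, glutamine and methionine, by 0.35 ± 0.09, 0.44 ± 0.09 and 0.53 ± 0.09, where its total RNA rose. In polysome RNA Uvrag was called up in 3 of the 5 deprivations and down in 0. Npc2 fell without glucose and methionine, by 0.68 ± 0.13 and 0.53 ± 0.13, and glucose loss was below glutamine loss by 0.59 ± 0.13 (adjusted p = 0.00452). Hexa, a subunit of beta-hexosaminidase, fell without glucose, glutamine and methionine, by 0.44 to 0.64. Lamp1 was called down in every deprivation but arginine, by 0.57 to 0.86, with 0.86 ± 0.14 without glutamine. Without arginine its value of -0.369 did not pass the test. Neither did the test for any TE difference of Lamp1 among the 5 deprivations (adjusted p = 0.0662). Lamp2, Ctsa, Ctsb, Ctsd, Ctsl, Ulk1 and Atg14 had no TE call. Atg14 rose by 1.10 ± 0.10 in polysomes without glucose, beside 1.03 ± 0.11 in total RNA. Further falls in TE were found in autophagy and lysosomal genes alike. Becn1 fell without arginine, BCAA, glutamine and methionine, by 0.30 ± 0.09, 0.43 ± 0.09, 0.30 ± 0.09 and 0.39 ± 0.09. Atg13 fell without BCAA, glutamine and methionine, by 0.33 ± 0.12 to 0.40 ± 0.12, and Wipi2 without glutamine by 0.31 ± 0.08. Mcoln1 and Ctsz fell without glutamine, by 0.65 ± 0.18 and 0.40 ± 0.15. Neu1 fell by 0.47 without glucose, glutamine and methionine each. Atp6v1b2, a cytosolic-sector subunit of the pump, rose without arginine (0.29 ± 0.10) and methionine (0.41 ± 0.10), and Atp6v1h, of the same sector, without methionine (0.38 ± 0.11).

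A test for any difference among the 5 deprivations called 13 members in TE, where 32.6% of all genes were called, and 26 with the lysate as a block.

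**Figure D4:**
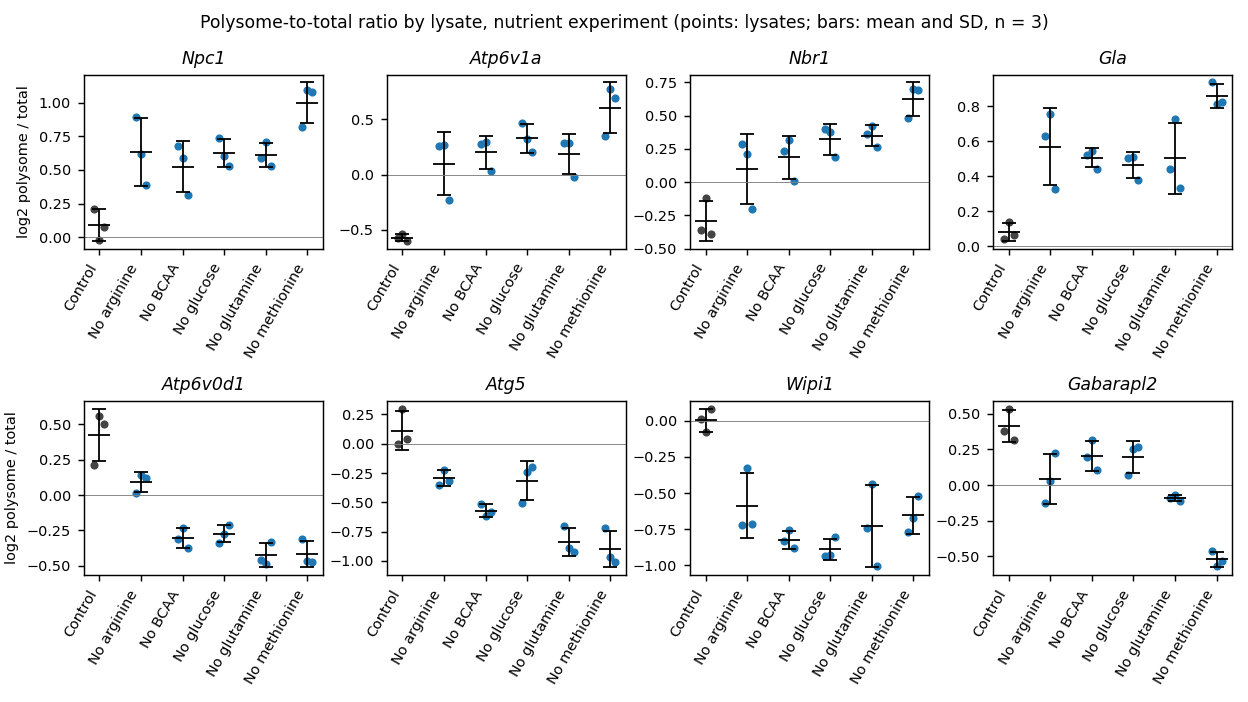
Log2 ratio of polysome CPM to total CPM per lysate, with 0.5 CPM added to both, for 8 members in Control and 5 deprivations, with each lysate as a point and the mean with its SD as a bar (3 lysates per group). Atp6v1a lies near -0.57 in Control and above that in all deprived lysates, and Gabarapl2 is lowest without methionine.

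In total RNA Npc1, Atg14, Nbr1 and Gla rose and Tfeb fell with Torin1. This drug called 13 members, 11 up and 2 down, 36.1% of members where 26.7% of all genes were called, with a member median of 0.19 against 0.01 over all genes. 4EGI-1 called 9, 8 up and 1 down (25% of members, 26.4% of all genes), with a median of 0.15. Halofuginone called 0 members in edgeR and 0 in DESeq2, where 0.279% of all genes were called. At an unadjusted p below 0.05 it had 2 of 36 members and 1080 of all 12535 genes. The Torin1 count was 8 without Torin1 replicate 1. The 4EGI-1 count was 5 without DMSO replicate 1, 4 without DMSO replicate 3, 3 without DMSO replicate 4 and 4 without 4EGI-1 replicate 3. For these smaller fits no share of all genes is given. A test for any difference among the 3 drugs called 20 members, where 42.3% of all genes were called.

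Npc1 was at 42.1, 59.4 and 45.7 CPM with DMSO and at 95.1, 105 and 87.6 CPM with Torin1. The Torin1 libraries were far above DMSO, a rise of 0.97 ± 0.14 (adjusted p = 6.22e-05). 4EGI-1 raised it by 0.46 ± 0.14, with overlap of the groups, and Torin1 exceeded 4EGI-1 by 0.51 ± 0.14 (adjusted p = 0.00723). Gla was at 15.6, 18.1 and 17.0 CPM with DMSO, at 28.5, 30.1 and 24.6 CPM with Torin1 and at 27.3, 24.1 and 18.7 CPM with 4EGI-1. Neither drug overlapped DMSO, with rises of 0.71 ± 0.12 and 0.47 ± 0.12 (adjusted p = 0.000334 and 0.00869), the latter lost without 4EGI-1 replicate 2 (adjusted p = 0.0528). The difference between these drugs, 0.25 ± 0.12, did not pass the test (adjusted p = 0.118). Torin1 also raised Ctsa by 0.37 ± 0.10, Npc2 by 0.37 ± 0.08 and Hexa by 0.26 ± 0.09.

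Tfeb had 10.4, 8.88 and 10.1 CPM with DMSO, 5.77, 4.95 and 4.55 CPM with Torin1 and 11.2, 13.6 and 14.3 CPM with 4EGI-1. All Torin1 libraries were below and all 4EGI-1 libraries above DMSO. It fell with Torin1 by 0.94 ± 0.16 (adjusted p = 0.000294), and with 4EGI-1 the change was 0.41 ± 0.14 (adjusted p = 0.0409). The 4EGI-1 call was lost without any 1 of the DMSO replicates or without 4EGI-1 replicate 3 or 4 (adjusted p up to 0.137). The drugs differed by 1.35 ± 0.16 (adjusted p = 3.35e-06). Tfe3 had no call with any drug.

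Autophagy genes raised by Torin1 were Atg14, Nbr1, Sqstm1, Map1lc3b, Atg13 and Gabarapl1. Nbr1 was at 29.3, 25.0 and 27.4 CPM with DMSO and at 50.2, 45.2 and 43.8 CPM with Torin1, and Atg14 went from 6.89, 7.98 and 7.02 CPM to 13.0, 13.2 and 12.0 CPM. Neither gene's groups overlapped, with rises of 0.77 ± 0.09 and 0.80 ± 0.15 (adjusted p = 1.32e-05 and 0.00059). Map1lc3b went from 95.0, 104 and 105 CPM to 154, 142 and 129 CPM, 0.48 ± 0.08 (adjusted p = 0.000322). Sqstm1 rose by 0.49 ± 0.16, which was lost without DMSO replicate 3 or 4 or Torin1 replicate 1 or 4 (adjusted p up to 0.113). Atg5 fell by 0.23 ± 0.07, lost without DMSO replicate 3 or 4 or Torin1 replicate 1 or 3 (adjusted p up to 0.0939). Nbr1 and Atg14 were higher with Torin1 than with 4EGI-1, by 0.60 ± 0.09 and 0.57 ± 0.14 (adjusted p = 7.96e-05 and 0.00475).

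With 4EGI-1 both lipid readers rose, and Wipi1 had the largest rise of any member. Wipi1 went from 4.94, 4.87 and 5.12 CPM with DMSO to 9.78, 8.78 and 6.74 CPM, and Wipi2 from 68.2, 59.4 and 66.4 CPM to 81.1, 87.2 and 87.3 CPM. Both sets of groups were apart, with rises of 0.76 ± 0.16 and 0.40 ± 0.08 (adjusted p = 0.0024 and 0.000902). Wipi1 was higher with 4EGI-1 than with Torin1 by 0.54 ± 0.16 (adjusted p = 0.0157). Uvrag rose by 0.30 ± 0.10, lost without any 1 of the DMSO replicates or without 4EGI-1 replicate 3 or 4 (adjusted p up to 0.118). Its difference between the drugs, 0.57 ± 0.10 higher with 4EGI-1, was called (adjusted p = 0.00024). Atg7 fell by 0.32 ± 0.10, lost without DMSO replicate 3 or 4 or 4EGI-1 replicate 3 or 4 (adjusted p up to 0.11).

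**Figure D5:**
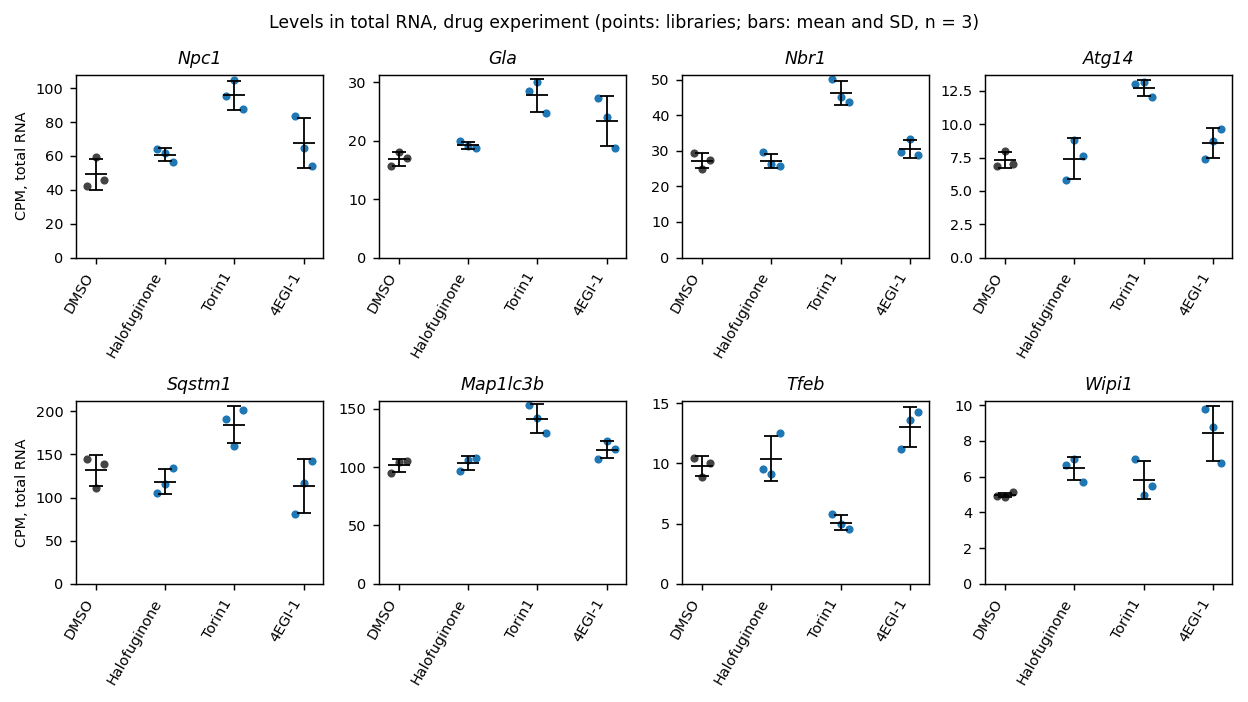
CPM in total RNA for 8 members with DMSO, halofuginone, Torin1 and 4EGI-1, with each library as a point and the mean with its SD as a bar (3 libraries per group, linear axes from 0). Npc1, Nbr1 and Atg14 are highest with Torin1, Wipi1 is highest with 4EGI-1, and Tfeb is lowest with Torin1.

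In polysome RNA Torin1 called 9 members, 8 up and 1 down, where 16.8% of all genes were called. Npc1 rose by 1.11 ± 0.22, Gla by 0.95 ± 0.28, Nbr1 by 0.90 ± 0.16, Atg14 by 0.87 ± 0.22, Atg13 by 0.79 ± 0.21 and Atp6v1a by 0.68 ± 0.17, and Tfeb fell by 1.23 ± 0.17. The groups of Gla overlapped, Atg13 was lost without DMSO replicate 3 or Torin1 replicate 1 or 4 (adjusted p up to 0.0676), and Atp6v1a was lost without Torin1 replicate 3 (adjusted p = 0.0667). 4EGI-1 called 3 members, all up, where 28.6% of all genes were called: Atp6v1a at 0.98 ± 0.17, Npc1 at 0.78 ± 0.22 and Ulk1 at 0.49 ± 0.16. Npc1 was lost without DMSO replicate 1 or 4EGI-1 replicate 2, and Ulk1 without DMSO replicate 3 or 4EGI-1 replicate 3 or 4 (adjusted p up to 0.14). Halofuginone called 0 members in edgeR and 0 in DESeq2, where 0.0491% of all genes were called. At an unadjusted p below 0.05 it had 6 of 36 members and 1481 of all 12223 genes.

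In TE no member was called with any drug in edgeR. Members at an unadjusted p below 0.05 numbered 3 of 36 with halofuginone, 4 with Torin1 and 5 with 4EGI-1. Of all 12745 genes, 675, 1640 and 2084 lay below that unadjusted p. DESeq2 called 0, 2 and 2 members, and the shares of all genes called in edgeR at an adjusted p below 0.05 were 0%, 1.79% and 0.565%. Without DMSO replicate 4 edgeR called 1 member with Torin1, and with the lysate as a block it called 2 with Torin1 and 1 with 4EGI-1. For Atp6v1a the standard error was 0.20 here and 0.15 in the nutrient experiment. Atp6v1a, which rose in TE in all 5 deprivations, stood at 0.51 ± 0.20 with halofuginone, 0.51 ± 0.20 with Torin1 and 0.80 ± 0.20 with 4EGI-1, and Wipi1 at -0.90 ± 0.25, -0.62 ± 0.26 and -0.79 ± 0.25. The other members called in TE in all 5 deprivations differed less from DMSO. Over the 3 drugs Npc1 ran from 0.193 to 0.389, Nbr1 from 0.152 to 0.287 and Atp6v0d1 from -0.226 to -0.069. Atg5 and Tfe3, which fell in the deprivations, ran from -0.078 to 0.285 and from -0.005 to 0.26.

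Other genes of the pathway, taken from lists of names, were counted beside the members. Of 42 other autophagy genes tested in total RNA, 3 rose and 1 fell without arginine (9.52% of the list called, beside 9.24% of all genes), 10 and 5 without BCAA (35.7% and 30.1%), 9 and 7 without glucose (38.1% and 40.8%), 13 and 6 without glutamine (45.2% and 39%) and 6 and 6 without methionine (28.6% and 35.2%). These shares lay near those of all genes. Atg12, the partner of Atg5, rose by 1.12 ± 0.08 without glutamine, 1.03 ± 0.08 without BCAA and 0.92 ± 0.08 without glucose. Of 34 other lysosomal hydrolases and activators, 3 rose and none fell without arginine, none rose and 1 fell without BCAA, 3 rose and 6 fell without glucose, and 2 rose and 3 fell without methionine. These shares of 8.82%, 2.94%, 26.5% and 14.7% were below those of all genes. Without glutamine none rose and 11 fell, 32.4% of the list beside 39% of all genes, led by Nagpa (-0.56 ± 0.09) and Gusb (-0.52 ± 0.09). Of 8 genes for MiT/TFE factors and the folliculin and Rag proteins that control them, Fnip2 and Rragd fell in every deprivation, Fnip2 by 0.73 ± 0.16 without arginine to 1.92 ± 0.18 without glutamine. In the order arginine, BCAA, glucose, glutamine and methionine loss, 1, 1, 2, 2 and 1 of the 8 rose and 2, 2, 3, 3 and 3 fell. These were 37.5%, 37.5%, 62.5%, 62.5% and 50% of this short list, beside 9.24%, 30.1%, 40.8%, 39% and 35.2% of all genes. Fnip1 rose without arginine (0.30 ± 0.07), BCAA (0.32 ± 0.07) and glutamine (0.65 ± 0.07), and Flcn rose without glucose (0.30 ± 0.07). Fnip2 also fell with Torin1, by 1.21 ± 0.21, where Fnip1 rose by 0.96 ± 0.10.

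Of 12 other proton pump subunits, TE fell for 3 and rose for 1 without arginine, fell for 6 without BCAA, 4 without glucose and 8 without glutamine, and fell for 6 and rose for 1 without methionine. The shares called were 33.3%, 50%, 33.3%, 66.7% and 58.3%, above those of all genes, 16.5%, 26.9%, 25.8%, 35.2% and 49.1%. In that order the list medians were -0.27, -0.46, -0.39, -0.58 and -0.65, beside -0.04, -0.12, -0.08, -0.15 and -0.14 over all genes. Atp6v0b, of the membrane sector, fell by 0.50 ± 0.15 without arginine and by 1.03 ± 0.15 without methionine, and Atp6v1g1, of the cytosolic sector, by 1.44 ± 0.15 without methionine. Among the 34 other hydrolases, 5 rose and none fell in TE without arginine, 2 and 2 without BCAA, 2 and 1 without glucose, and 1 and 3 without glutamine. These were 14.7%, 11.8%, 8.82% and 11.8% of the list, each below the share of all genes. Without methionine 12 rose and 2 fell, 41.2% of the list beside 49.1% of all genes, led by Idua (0.95 ± 0.23), Sgsh (0.94 ± 0.20) and Manba (0.91 ± 0.14), enzymes that break down sugar chains.

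With Torin1, 9 of the 34 other hydrolases rose in total RNA and none fell, 6 of 25 other lysosomal membrane proteins and transporters rose and 2 fell, and 12 of 42 other autophagy genes rose and 2 fell. These were 26.5%, 32% and 33.3% of the lists, beside 26.7% of all genes. Ccpg1, a receptor for parts of the endoplasmic reticulum, rose by 1.15 ± 0.22, Tecpr1 by 1.06 ± 0.11 and Tpcn2, a lysosomal ion channel, by 0.86 ± 0.18. With 4EGI-1 the same lists gave 7 up and 0 down, 10 up and 2 down, and 9 up and 3 down, or 20.6%, 48% and 28.6%, beside 26.4% of all genes. The medians of the 3 lists were 0.18, 0.19 and 0.08 with Torin1 and 0.20, 0.23 and 0.11 with 4EGI-1, where all genes had 0.01 and 0.01.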

How the data were processed

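Raw read counts per Ensembl gene were deposited by the authors as one table of whole numbers with no normalization, covering 60 of the 78 libraries in the labels; 18 monosome libraries were not analysed here. The submitters' processing notes name Trimmomatic, FastQC, MultiQC, STAR, HTSeq, edgeR and the build GRCm39, without versions. In R 4.3.3, edgeR 4.0.16 with limma 3.58.1 was used: filterByExpr with a minimum count of 10, TMM scaling and the quasi-likelihood F test, for total and polysome RNA over all groups of an experiment, and for TE as an interaction over both kinds of library. All 36 members passed every filter, in fits of 12642 (total, nutrient), 12417 (polysome, nutrient), 13072 (TE, nutrient), 12535, 12223 and 12745 (drug) genes. Each standard error was derived from the F statistic of its fold change, and the steps were tested on simulated data.

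Alternatives were relative log expression size factors, no filter, DESeq2 1.42.0, leaving out ribosomal RNA entries, blocks and leaving out each replicate. Total and polysome libraries of one lysate are paired by the labels' protocol (mean residual correlation 0.117 and 0.154). The main TE fit had no term for the lysate, which entered only in the lysate block. Within a fraction the numbers were not taken as pairs, since correlations went down to -0.142 in total and -0.236 in polysome RNA of the nutrient experiment, and to -0.0927 and -0.29 in the drug experiment. No libraries agreed within sampling noise. Members and gene lists were chosen with earlier results of these data known. By the rule for naming, the 5 largest called changes in each direction were named per comparison, with all 3 libraries on one side of all 3 controls except for TE, and up to 3 genes per list; members that lead one comparison are given in others too. Torin1 replicate 3 and 4EGI-1 replicate 2 of polysome RNA carry an R in the library name, whose meaning is not given.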

Additional observations from a re-analysis of the deposited data

How the results depend on the processing

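Of 172 calls of named members, 135 held in every fit that left out 1 replicate and under every other setting. The other 37 were lost without at least 1 replicate, 6 of them also under another setting, and 0 changed sign. Leaving out replicates gave counts of called members from 2 to 7 without arginine and from 11 to 17 without glucose in total RNA, from 2 to 15 without arginine and 10 to 13 without BCAA in TE, and with drugs from 3 to 8 (4EGI-1, total RNA), 8 to 12 (Torin1, total RNA) and 0 to 1 (Torin1, TE). With the replicate block, which for TE is the lysate, Torin1 in total RNA gave 20 members where the fit without it gave 13, TE without arginine 20 (13), any TE difference among deprivations 26 (13), and TE 2 with Torin1 and 1 with 4EGI-1 (0 each). The block changed no other count by over 1.5 times. Counts under left-out replicates and other settings are given without the share of all genes called in the same fit. TE with Torin1 gave 1 member with relative log expression size factors and 2 with DESeq2, and with 4EGI-1 2 with DESeq2; the cause was not tested. Levels of Tfeb, Map1lc3a, Wipi1 and Atg14 rested on as few as 47, 54, 63 and 68 reads in a library, which limits what could be called for them.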
